A study of Mus musculus with 8 samples.

Results

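Eicosanoids are signalling lipids made from arachidonic acid, and the 10 genes described here encode enzymes of their synthesis: *Pla2g4a*, *Alox5*, *Alox5ap*, *Alox15*, *Lta4h*, *Ltc4s*, *Ptgs1*, *Ptgs2*, *Ptges* and *Ptgis*. They were chosen by their place in the pathway (release of arachidonic acid, lipoxygenases, cyclooxygenases, leukotriene and prostanoid synthases) and matched from gene symbol to Ensembl gene ID in an annotation of the mouse genome GRCm38. All 10 were among the 48795 genes of the deposited tables, and all 10 were among the 13040 genes that had enough counts to be tested. Polyadenylated RNA of peritoneal macrophages (pMacs), which the study describes as purified, was sequenced from 4 wild-type (WT) and 4 CD1d-deficient (CD1d-KO) mice, with 1 library per mouse. CD1d is the MHC-like molecule that presents lipids to natural killer T cells, so CD1d-KO mice lack CD1d in all cells and also lack these T cells. The study worked with age- and sex-matched mice, names littermates as the controls of this experiment, and kept 2 lines without CD1d, a deletion of *Cd1d2* and *Cd1d1* together and a floxed CD1d allele crossed to PGK-Cre. Which line gave the sequenced cells, and how those cells were purified, is not given in the sources used here. No stimulus is named for either group, and the question behind the comparison was how the resting transcriptome differs without CD1d.

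Each genotype has replicates numbered 1, 2, 3 and 5, and the depth per library ran from 13698864 to 19059432 reads assigned to genes. The deleted gene *Cd1d1* had 68.2, 175, 96.1 and 141 normalized counts (counts scaled to the mean library size) in WT replicates 1, 2, 3 and 5. It had 1.14, 0 and 1.1 in CD1d-KO replicates 2, 3 and 5, but 60.7 in the library labelled CD1d-KO replicate 1. By *Cd1d1* alone that library goes against its label. The log2 fold change without the pair of replicate 1 is therefore given below for each of the 10 genes and for each gene of the wider list with an unadjusted p under 0.05. The label of the cells was checked against marker genes: all 7 markers of macrophages and all 9 of large peritoneal macrophages were detected and tested, and the macrophage list summed to between 18419 and 28583 TPM (transcript abundance scaled for gene length and library size) in every library. Most of that sum was *Lyz2* (mean 21321 TPM). *Fcgr1*, an Fc receptor in the same list, ran from 3.65 to 155 TPM and was higher without CD1d in 4 of 4 pairs (log2 fold change 1.03, adjusted p = 0.300 from edgeR). It had 77.9, 1925, 2997 and 526 normalized counts in the WT and 350, 2163, 3339 and 2131 in the CD1d-KO replicates.

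Arachidonic acid is cut from membrane phospholipids by cytosolic phospholipase A2 and then enters competing routes. Lipoxygenases oxidize it to hydroperoxy acids and leukotrienes, and cyclooxygenases oxidize it to prostaglandin H2, which terminal synthases turn into prostaglandin E2, prostacyclin or thromboxane. Resident peritoneal macrophages of the mouse are a classic source of these mediators, and large amounts of 12/15-lipoxygenase, the product of *Alox15*, are a known feature of them. *Ptgs2* and *Ptges* are the inducible pair of the prostaglandin E2 route, whereas *Ptgs1* is generally described as constitutive.

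The upstream sequence of these 3 genes is shown because *Ptges* and *Ptgs2* are the genes at an unadjusted p under 0.05 below, with *Ptgs1* as the other cyclooxygenase gene. Each line gives the 150 bases before the RefSeq transcription start on GRCm38.p6, 5′ to 3′ on the strand of the gene, and a shorter stretch just after the start of *Ptgs2*. Capitals mark matches to 5 motifs searched on both strands: the TATA box (letters TATAAA), the GC box (letters GGGCGG), the E-box (letters CACGTG), a palindrome bound by C/EBP factors (letters TTGCGCAA) and the cyclic AMP response element (letters TGACGTCA), none of which contains another.
*Ptgs1*, chr2:36230276-36230425, plus strand: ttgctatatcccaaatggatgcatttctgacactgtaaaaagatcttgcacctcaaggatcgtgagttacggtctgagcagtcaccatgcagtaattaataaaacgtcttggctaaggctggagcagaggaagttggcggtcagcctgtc
*Ptgs2*, chr1:150099881-150100030, plus strand: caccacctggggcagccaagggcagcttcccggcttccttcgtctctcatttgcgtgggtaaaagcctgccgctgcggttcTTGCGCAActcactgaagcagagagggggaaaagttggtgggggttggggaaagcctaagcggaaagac
*Ptgs2* after the start, chr1:150100039-150100060, plus strand: cactacgtCACGTGgagtccgc
*Ptges*, chr2:30903298-30903447, minus strand: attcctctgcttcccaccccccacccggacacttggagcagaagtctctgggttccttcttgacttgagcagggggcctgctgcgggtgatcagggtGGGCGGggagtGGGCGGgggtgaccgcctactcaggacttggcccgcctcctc
The windows searched ran from 250 bases before to 50 after the start. *Ptgs2* held the C/EBP palindrome from -69 to -62, which 0.183% of the 32851 windows in the RefSeq table hold. It also held an E-box from 17 to 22, found in 7.15% of windows, and a GC box from -170 to -165, found in 35.7%. *Ptges* held GC boxes at -53 to -48 and at -42 to -37. The TATA box was found in 13.6% of windows and the cyclic AMP response element in 1.79%. None of the 5 motifs was found in the window of *Ptgs1*. RefSeq windows were found for 7 of the 10 genes, and among the others *Alox5* held a GC box from -35 to -30 and the other listed start of *Pla2g4a* held a TATA box from -200 to -195.

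Read per length, the genes spanned a wide range of levels, and the order of the 10 was led by *Ptges*. Its mean over the 8 libraries was 528 TPM (range 265 to 744), and 224 of the 13040 tested genes had a higher mean. *Alox5ap* followed with 424 TPM (299 to 508) and *Alox15* with 315 TPM (197 to 422). These 3 formed the top of the order and their ranges overlapped one another's, so their order was not separated beyond the spread between libraries. *Alox15* stood clear of the gene after it, *Ptgis*, at 129 TPM (93.0 to 175). *Ptgis*, *Pla2g4a* (111 TPM, 72.4 to 152), *Ltc4s* (64.5 TPM, 42.1 to 88.5) and *Ptgs2* (62.6 TPM, 28.6 to 114) overlapped from neighbour to neighbour. Below a gap without overlap came *Ptgs1* at 19.0 TPM (14.4 to 26.4) and *Lta4h* at 18.1 TPM (11.8 to 23.8). *Alox5* was last at 6.57 TPM (4.78 to 8.65), below *Lta4h* in every library, and 8149 tested genes had a higher mean.

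**Figure D1:**
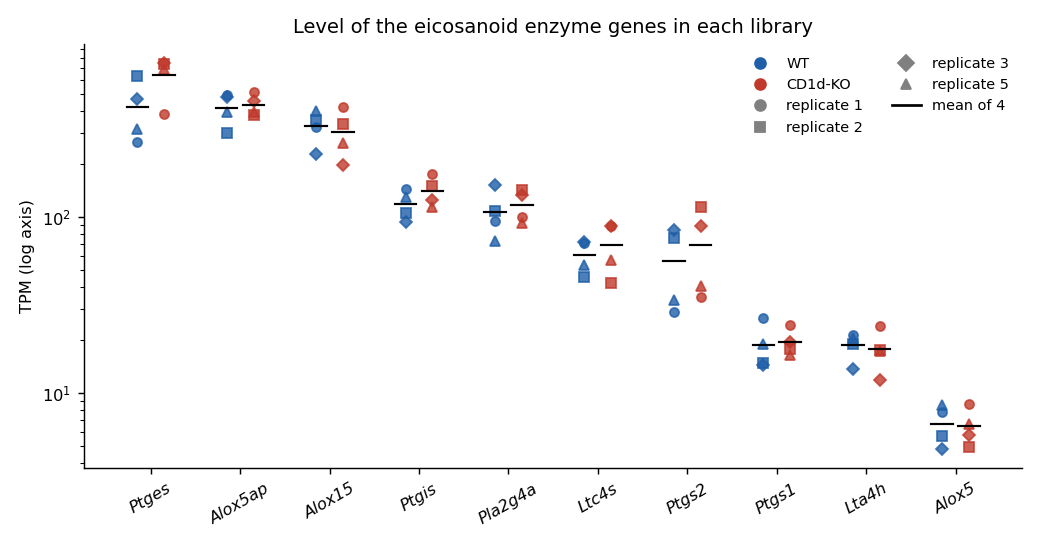
Level of the 10 eicosanoid enzyme genes in TPM on a log axis, ordered by mean; each point is 1 library, colour gives the genotype, shape the replicate number, and the black line is the mean of 4. *Ptges*, *Alox5ap* and *Alox15* lie highest and *Alox5* lowest, with WT and CD1d-KO libraries overlapping for every gene.

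Genes of partner proteins differed in level. 5-lipoxygenase (*Alox5*) works on the nuclear membrane with its helper protein FLAP (*Alox5ap*), and *Alox5ap* had between 46.1 and 101 times the TPM of *Alox5* in the 8 libraries. The ratio was 65.8 ± 24.3 in WT and 68.6 ± 11.3 in CD1d-KO pMacs (SD, n = 4 each). *Alox15* had between 34.5 and 68.7 times the TPM of *Alox5*. The ratio of *Ptgs2* to *Ptgs1* moved with the replicate number rather than holding one value: it was 1.08, 5.18, 5.88 and 1.78 in WT replicates 1, 2, 3 and 5 and 1.43, 6.42, 4.55 and 2.49 in the CD1d-KO replicates. The ratio of *Ptges* to *Ptgis* ranged from 1.84 to 6.10. *Ltc4s*, which makes leukotriene C4 and with it the cysteinyl leukotrienes, had 2.39 to 7.47 times the TPM of *Lta4h*, which makes leukotriene B4 from the same precursor.

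Between the genotypes, edgeR called none of the 10 genes at the thresholds of the study, which are a fold change above 1.5 together with an adjusted p under 0.01, in a quasi-likelihood model of genotype and replicate number. The share called over all genes tested was 0.0383% in the higher direction and 0.0% in the lower. At an unadjusted p under 0.05, 2 of the 10 were higher in CD1d-KO pMacs, *Ptges* and *Ptgs2*, against 7.35% of all genes, and 0 were lower, against 5.01%. The count of 2 became 0 without the replicate block, 4 without the pair of replicate 5 (with *Ptgs1* and *Ptgis*), 3 without that of replicate 3 (with *Pla2g4a*), and stayed at 2 without that of replicate 1. DESeq2, the tool with which the study applied these thresholds, called 1 of the 10 with the same covariates, *Ptges*. Of its 10617 tested genes DESeq2 called 0.669% as higher and 0.32% as lower. The log2 fold change was above 0 for 7 of the 10, against 51.0% of all genes. Its median over the 10 was 0.13, beside 0.0047 over all genes tested. WT and CD1d-KO libraries overlapped for each of the 10 genes, where 1.96% of all genes had groups that did not overlap. In these bulk libraries a change in the number of cells of a type and a change in the RNA per cell cannot be told apart.

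**Figure D2:**
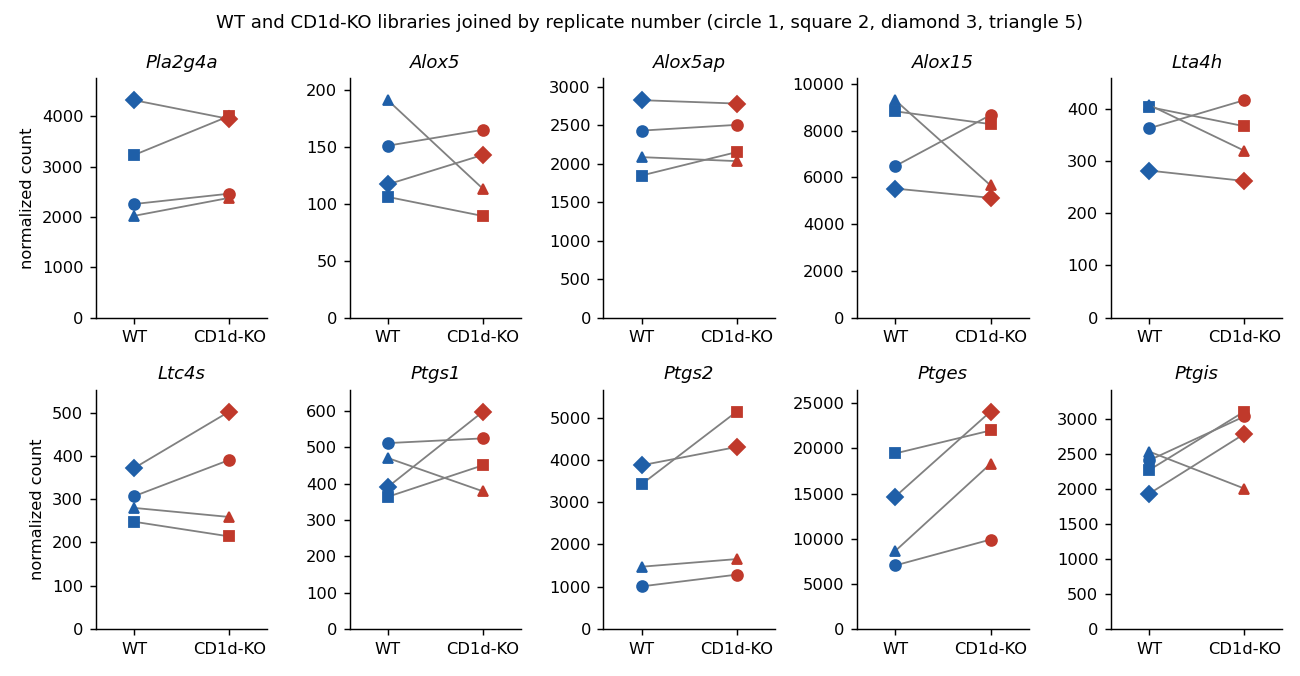
Normalized counts of each of the 10 genes in WT (left) and CD1d-KO (right) libraries, with libraries of the same replicate number joined by a line; each panel has its own axis starting at 0. The 4 lines of *Ptges* and the 4 of *Ptgs2* all rise to the right, while those of the other 8 genes run in both directions.

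*Ptges* (ENSMUSG00000050737, chromosome 2, 30889471 to 30929863) encodes microsomal prostaglandin E synthase, which turns prostaglandin H2 into prostaglandin E2. WT replicates 1, 2, 3 and 5 had 7037, 19452, 14667 and 8641 normalized counts of *Ptges*. The CD1d-KO replicates of the same numbers had 9907, 21998, 24098 and 18307. The CD1d-KO library was the higher in 4 of 4 pairs, with ratios of 1.41, 1.13, 1.64 and 2.12, yet the groups overlapped. WT replicates 2 and 3 lay above CD1d-KO replicate 1, and WT replicate 2 also lay above CD1d-KO replicate 5. The means were 12449 ± 5709 and 18578 ± 6257 (SD, n = 4 each), and the fitted fold change was 1.53 (95% confidence interval 1.22 to 1.92, log2 0.62, standard error 0.14). The adjusted p was 0.144 from edgeR (Benjamini-Hochberg) and 0.00149 from DESeq2. Without the filter on low counts, edgeR also called *Ptges* (adjusted p = 0.000568). Without the pair of replicate 1 the log2 fold change was 0.66 (adjusted p = 0.302 from edgeR), and without the replicate block it was 0.58 with a standard error of 0.36 (adjusted p = 0.997). Thus the size held within 0.46 to 0.79 over 14 alternatives, and the call depended on the tool and on the filter.

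*Ptgs2* (ENSMUSG00000032487, chromosome 1, 150100031 to 150108227) encodes the inducible cyclooxygenase COX-2, the enzyme before *Ptges* on the route to prostaglandin E2. WT replicates 1, 2, 3 and 5 had 1006, 3420, 3870 and 1471 normalized counts, and the CD1d-KO replicates had 1284, 5142, 4304 and 1652. In both genotypes replicates 2 and 3 were high and replicates 1 and 5 low, and inside each pair the CD1d-KO library was the higher, by 1.28, 1.5, 1.11 and 1.12 times. The means of 2441 ± 1414 and 3096 ± 1916 (SD, n = 4 each) differed by far less than the spread between the mice of a genotype. The paired log2 fold change was 0.32 (standard error 0.09, interval of the fold 1.08 to 1.44), which did not pass the threshold with edgeR (adjusted p = 0.211) or with DESeq2 (0.0834). Without the pair of replicate 1 it was 0.30 (adjusted p = 0.480 from edgeR). A higher CD1d-KO library in 4 of 4 pairs was seen for 2 of the 10 genes, *Ptges* and *Ptgs2*, beside 10.6% of all genes tested, and a lower one for 0 of the 10, beside 10.1%.

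*Ptgs1* (ENSMUSG00000047250, chromosome 2, 36230426 to 36252272) encodes COX-1. Its normalized counts were 512, 364, 391 and 471 in the WT and 525, 451, 599 and 379 in the CD1d-KO replicates. The CD1d-KO library was higher in 3 pairs and lower in that of replicate 5. The log2 fold change was 0.16 (95% interval -0.17 to 0.49, adjusted p = 0.712 from edgeR), so the data leave room for a change of up to 1.4-fold. It was 0.20 without the pair of replicate 1, 0.31 without that of replicate 5 (unadjusted p = 0.0456) and 0.01 without that of replicate 3. *Ptgis* (ENSMUSG00000017969, chromosome 2, 167191805 to 167240604) encodes prostacyclin synthase. WT replicates had 2411, 2271, 1933 and 2538 normalized counts and CD1d-KO replicates 3040, 3110, 2790 and 2008. As with *Ptgs1*, the pair of replicate 5 ran against the other 3. The log2 fold change was 0.25 (interval -0.077 to 0.57, adjusted p = 0.525 from edgeR) and 0.22 without the pair of replicate 1. It was 0.44 without that of replicate 5 (unadjusted p = 0.00151, adjusted p = 0.220 from edgeR) and 0.15 without that of replicate 3.

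*Pla2g4a* (ENSMUSG00000056220, chromosome 1, 149829618 to 149961290) encodes the cytosolic phospholipase A2 that releases arachidonic acid for both routes. It lies beside *Ptgs2*: the starts of these genes are 138.7 kb apart on opposite strands, with 0 annotated protein-coding genes between them. Its normalized counts were 2255, 3228, 4318 and 2020 in WT and 2461, 4004, 3944 and 2378 in CD1d-KO replicates 1, 2, 3 and 5. As for *Ptgs2*, replicates 2 and 3 were the high ones in both genotypes. The CD1d-KO library was higher in 3 of 4 pairs, and the log2 fold change of 0.13 (interval -0.068 to 0.34, adjusted p = 0.588 from edgeR) did not pass the test. It was 0.14 without the pair of replicate 1, 0.079 without that of replicate 2 and 0.22 without that of replicate 3 (unadjusted p = 0.0315).

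In the lipoxygenase and leukotriene arm no gene reached an unadjusted p under 0.05. *Alox15* (ENSMUSG00000018924, chromosome 11, 70344152 to 70352031) had 6485, 8827, 5521 and 9305 normalized counts in the WT and 8670, 8281, 5124 and 5656 in the CD1d-KO replicates. The library labelled CD1d-KO replicate 1 was its highest in that genotype and the other 3 lay below their WT partners. The log2 fold change was -0.12 over the 4 pairs (interval -0.50 to 0.25, adjusted p = 0.811 from edgeR), -0.31 without replicate 1 (adjusted p = 0.573) and 0.073 without replicate 5 (adjusted p = 0.920). It was -0.13 without replicate 2 and -0.13 without replicate 3, so the sign for *Alox15* rested on the pair of replicate 5.

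*Alox5* (ENSMUSG00000025701, chromosome 6, 116410077 to 116461178) had 151, 106, 117 and 191 normalized counts in WT and 165, 89.2, 143 and 113 in CD1d-KO replicates. Its pairs split evenly in direction, and its log2 fold change of -0.14 (interval -0.56 to 0.28, adjusted p = 0.810 from edgeR) had the widest interval of the 10, at the lowest level. It was -0.24 without the pair of replicate 1 and -0.28 without that of replicate 3, and turned to 0.067 without that of replicate 5. *Alox5ap* (ENSMUSG00000060063, chromosome 5, 149264767 to 149288153) had 2432, 1848, 2828 and 2087 normalized counts in the WT and 2507, 2153, 2784 and 2035 in the CD1d-KO replicates. It had the narrowest interval, with a fold change between 0.923 and 1.16 (log2 0.051, adjusted p = 0.832 from edgeR), and its log2 fold change was 0.053 without the pair of replicate 1. For *Alox5ap* the data therefore bound any difference between genotypes more tightly than for the other 9 genes.

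*Lta4h* (ENSMUSG00000015889, chromosome 10, 93453411 to 93484875) encodes leukotriene A4 hydrolase and had 363, 404, 282 and 408 normalized counts in WT against 417, 367, 262 and 320 in CD1d-KO replicates. It was lower in 3 of 4 pairs (log2 fold change -0.094, interval -0.33 to 0.14, adjusted p = 0.772 from edgeR). Without the pair of replicate 1 the value was -0.20 and without that of replicate 5 it was -0.0092. *Ltc4s* (ENSMUSG00000020377, chromosome 11, 50236461 to 50238616) encodes leukotriene C4 synthase, and its pairs again split evenly. It had 307, 248, 372 and 280 normalized counts in the WT and 391, 214, 503 and 259 in the CD1d-KO replicates (log2 fold change 0.13, interval -0.16 to 0.42, adjusted p = 0.742 from edgeR). The value moved with single pairs, to 0.048 without replicate 1, 0.24 without replicate 2 and 0.023 without replicate 3. Genes annotated inside or across the 10 were low: the highest was *Gm19719*, antisense to *Alox5ap*, with at most 105 normalized counts, and the processed pseudogene *Gm13400* within *Ptges* had at most 26.4. The strand setting of the counting is not given in the sources used here, so reads of *Gm19719* and *Alox5ap* cannot be told apart where they overlap.

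The variation over the 8 libraries was split into a share between replicate numbers, which takes 42.9% of the degrees of freedom, a share between genotypes, which takes 14.3%, and the rest. For *Ptgs2* 95.5% of the variation of log2 CPM (counts scaled to library size) lay between replicate numbers, 3.42% between genotypes and 1.06% was left over. The replicate shares of *Pla2g4a* (92.9%), *Alox5ap* (92.5%), *Ltc4s* (83.9%) and *Lta4h* (78.5%) were above the median of 64.8% over all genes tested, as was that of *Ptges* at 68.7%. Those of *Alox5* (60.3%), *Alox15* (58.6%), *Ptgs1* (36.4%) and *Ptgis* (23.0%) were below it. The share between genotypes was 24.4% for *Ptges* and 25.9% for *Ptgis*, beside a median of 7.14% over all genes.

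**Figure D3:**
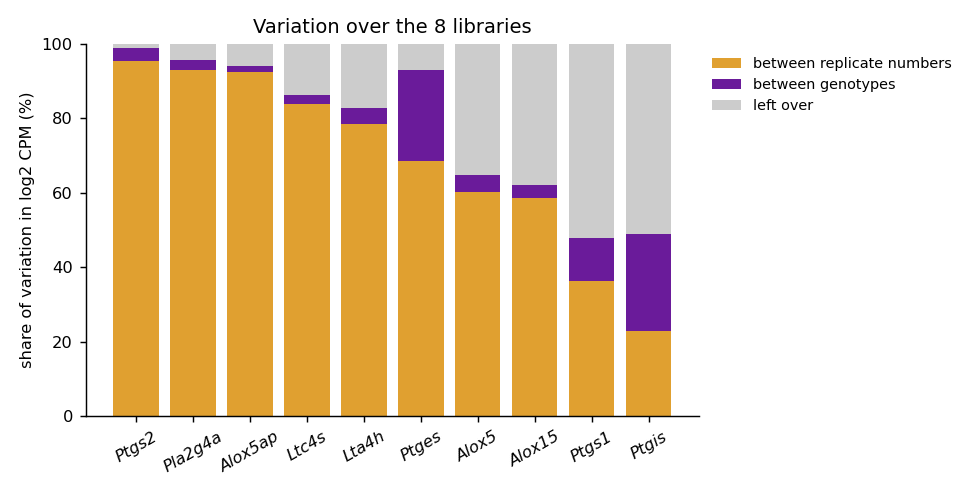
Share of the variation of log2 CPM over the 8 libraries (%) that lay between the 4 replicate numbers, between the 2 genotypes and left over, for each of the 10 genes. *Ptgs2* has the tallest replicate share (95.5%) and *Ptgis* the lowest (23.0%); the genotype share is visible mainly for *Ptges*, *Ptgis* and *Ptgs1*.

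A test of the replicate number in the same edgeR fit, added after these values were seen, gave an adjusted p under 0.01 for 2 of the 10 genes, *Ptgs2* (adjusted p = 0.00161) and *Pla2g4a* (0.00728), where 3.93% of all genes passed. The means of the replicate numbers spanned 3.69-fold for *Ptgs2*, 2.48-fold for *Ptges* (adjusted p = 0.0144 from edgeR) and 1.88-fold for *Pla2g4a*. What the numbers stand for (a day, a litter or a cage) is not given in the sources used here, and its part in these levels was not tested. *Ptgs2* was the gene of the 10 that varied most, and the 5 tested genes whose log2 CPM followed it most closely over the 8 libraries were *Osmr*, *Slfn10-ps*, *Aqp9*, *Gcnt2* and *Saa1*. They departed from it by 0.20 to 0.23 on the log2 scale on average, after each gene's own mean was subtracted. *Aqp9*, an aquaporin, had 219, 466, 807 and 286 normalized counts in the WT and 375, 1009, 1212 and 357 in the CD1d-KO replicates 1, 2, 3 and 5. *Saa1*, an acute-phase protein, had 42.7, 218, 173 and 98.0 in WT and 61.4, 205, 250 and 92.3 in CD1d-KO replicates, again high in numbers 2 and 3. The likeness over 8 libraries is a description, and all 5 genes share these libraries with *Ptgs2*.

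The rest of the pathway was taken as a list of 68 genes in 9 roles, of which 40 were tested. At an unadjusted p under 0.05, 3 of the 40 had a higher and 5 a lower level in CD1d-KO pMacs, beside 7.35% and 5.01% of all genes. At an adjusted p of 0.05 edgeR passed 0 of the 40, beside 0.406% of all genes. DESeq2 gave an adjusted p to 36 of the listed genes, of which 3 were lower at 0.05 (*Ephx1*, *Cmklr1* and *Ptgr1*), beside 0.942% of its genes, and 0 were higher, beside 1.95%. The median log2 fold change was -0.076. Without the pair of replicate 1 the 8 genes kept their direction: *Acsl1* was at 0.35, *Akr1b3* at 0.21, *Slco2a1* at 1.47, *Ptgr1* at -0.91, *Ptges3* at -0.16, *Tbxas1* at -0.14, *Ephx1* at -0.37 and *Cmklr1* at -0.39 on the log2 scale. Of these, *Ptges3* and *Tbxas1* then had an unadjusted edgeR p above 0.05.

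Among other phospholipases and lipases that free or remove fatty acids, 8 of 14 were tested and 0 had an unadjusted p under 0.05. *Pla2g7*, the platelet-activating factor acetylhydrolase, had a mean of 985 TPM, more than any of the 10 genes above, followed by *Ddhd1* (92.9 TPM) and *Pla2g15* (51.0 TPM). Of the 6 genes that put arachidonic acid back into phospholipids, *Acsl4* (92.0 TPM), *Lpcat2* (79.3 TPM) and *Acsl1* (43.9 TPM) were the highest. *Acsl1*, a long-chain acyl-CoA synthetase, had a mean of 1340 ± 430 normalized counts in the WT and 1773 ± 557 in the CD1d-KO group (SD, n = 4 each, log2 fold change 0.41, unadjusted p = 0.0115, adjusted p = 0.233 from edgeR). None of the 5 other lipoxygenase genes had enough counts to be tested. *Alox12*, the platelet lipoxygenase, reached at most 13.2 normalized counts, *Alox8* 5.87 and *Aloxe3* 2.11, so that *Alox15* and *Alox5* were the lipoxygenase genes with measurable levels here.

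Among the genes listed under leukotriene processing and export, *Mgst1* (285 TPM), *Abcc1* (227 TPM) and *Dpep2* (190 TPM) were the highest. *Abcc1* encodes a leukotriene C4 exporter and the product of *Dpep2* cleaves leukotriene D4, while a role of *Mgst1* in leukotriene handling was not tested. *Ptgr1*, which inactivates leukotriene B4 and prostaglandins, had 527, 374, 614 and 384 normalized counts in the WT and 292, 345, 149 and 242 in the CD1d-KO replicates. It was lower in 4 of 4 pairs without overlap between the groups, with a log2 fold change of -0.89 ± 0.26 (standard error, adjusted p of 0.221 in edgeR and 0.0332 in DESeq2). Among further prostanoid synthases, *Ptges3* had 137 TPM, *Akr1b3* 79.3 TPM and the thromboxane synthase *Tbxas1* 78.4 TPM. *Akr1b3*, an aldose reductase that can make prostaglandin F2α, was higher in 4 of 4 pairs (log2 fold change 0.25, unadjusted p = 0.00721, adjusted p = 0.201 from edgeR). *Ptges3* (log2 fold change -0.17, adjusted p = 0.376) and *Tbxas1* (-0.24, adjusted p = 0.379) were each lower in 4 of 4 pairs and did not pass the edgeR threshold.

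Among genes of prostanoid transport and breakdown, *Abcc4* had 13.8 TPM, *Ptgr2* 11.7 TPM and the prostaglandin transporter *Slco2a1* 0.47 TPM. *Slco2a1* had a mean of 9.19 ± 7.69 normalized counts in the WT and 32.8 ± 39.3 in the CD1d-KO group (SD, n = 4 each, log2 fold change 1.62, adjusted p = 0.299 from edgeR). One CD1d-KO library, replicate 3, held 90.5 of these counts and the other 3 held 5.72 to 25.3. *Ephx1*, the microsomal epoxide hydrolase, was the gene of its role with a high level (94.6 TPM, beside 1.21 for *Cyp2j6* and 0.613 for *Ephx2*). Its normalized counts were 2294, 1132, 1294 and 2080 in WT and 1719, 865, 1060 and 1549 in CD1d-KO replicates, lower in each pair. The log2 fold change of *Ephx1* was -0.38 with a standard error of 0.063, and its adjusted p was 0.0582 in edgeR and 0.0015 in DESeq2, below the fold change threshold in both.

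Among receptors, those for prostacyclin (*Ptgir*, 55.8 TPM) and prostaglandin E2 (*Ptger4*, 24.2 TPM, and *Ptger2*, 8.91 TPM) were the highest of 9 prostanoid receptor genes, and 0 of the 4 tested had an unadjusted p under 0.05. *Cmklr1*, a receptor for chemerin that also binds resolvin E1, had 226 TPM, the formyl peptide receptor *Fpr2* 126 TPM and the cysteinyl leukotriene receptor *Cysltr1* 4.73 TPM. *Cmklr1* was lower in 4 of 4 pairs, with means of 6543 ± 947 and 5112 ± 1200 normalized counts in the WT and CD1d-KO groups (SD, n = 4 each, log2 fold change -0.38, adjusted p = 0.149 from edgeR and 0.00779 from DESeq2). The leukotriene B4 receptor *Ltb4r1* reached at most 7.69 normalized counts.

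**Figure D4:**
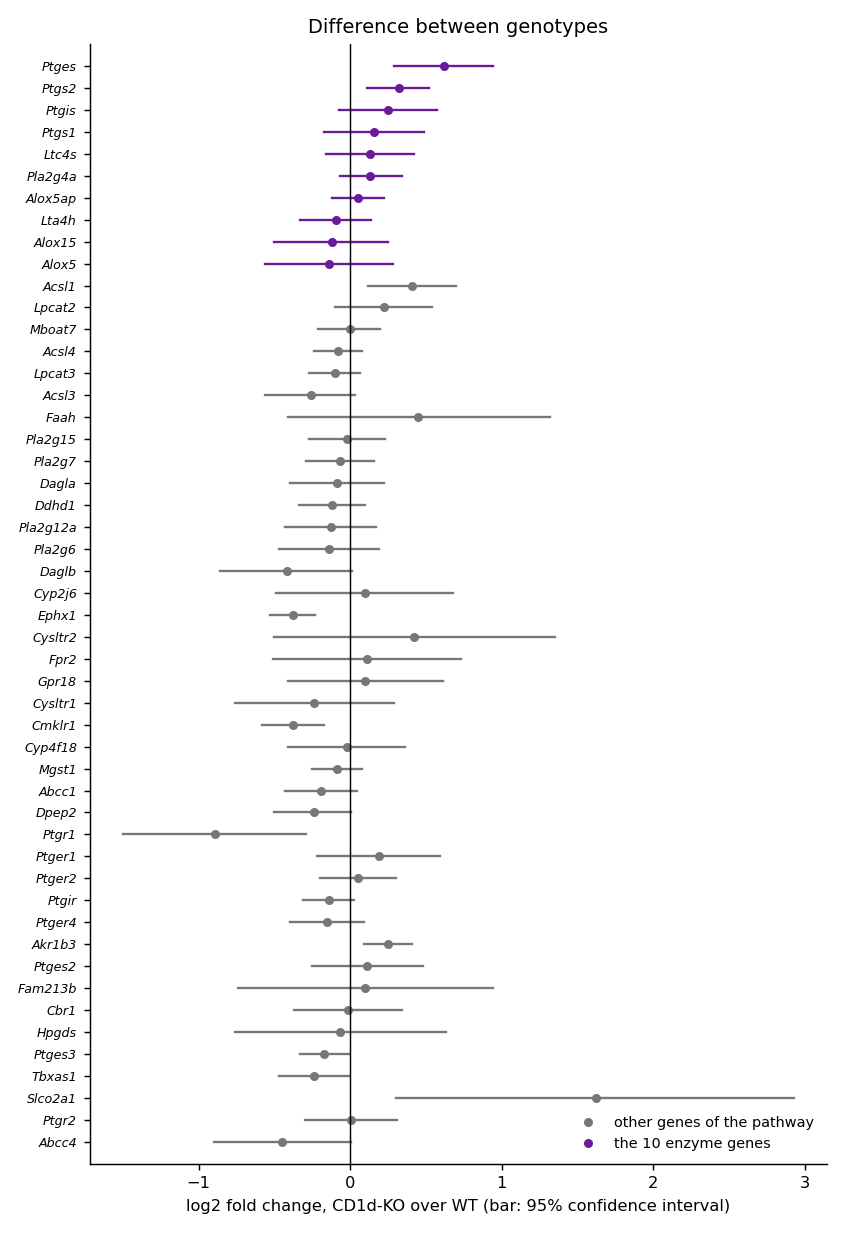
Log2 fold change (CD1d-KO over WT, x axis) of the 10 enzyme genes (purple) and of the 40 tested genes of the wider list (grey), with 95% confidence intervals that are not adjusted for multiple tests. *Ptges* and *Ptgs2* are the purple points whose bars stay to the right of 0, and *Ptgr1*, *Ephx1* and *Cmklr1* are among the grey points to the left of it.

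Several of the 10 genes are also expressed by other peritoneal cells, so the levels of those cells' markers are given beside them. Of 9 mast cell markers 5 were tested, and their summed level was 23.6 to 83.9 TPM in WT and 56.2 to 134 TPM in CD1d-KO libraries. Most of that sum was *Hdc*, the histamine-forming enzyme, which macrophages can also express. It had 309, 1430, 1807 and 1122 normalized counts in the WT and 778, 2013, 3287 and 1712 in the CD1d-KO replicates (log2 fold change 0.81, higher in 4 of 4 pairs, with an adjusted p of 0.0555 in edgeR and 8.23e-06 in DESeq2). Without *Hdc* the list summed to 8.24 to 21.6 TPM in WT and 5.15 to 17.3 TPM in CD1d-KO libraries. *Cma1*, *Mcpt4*, *Tpsb2*, *Tpsab1* and *Kit* were each lower in 3 of 4 pairs, *Cpa3* split evenly, *Fcer1a* had at most 4.7 normalized counts and *Ms4a2* at most 1.1. The part of mast cells in the level of *Ptges* was not tested.

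Summed eosinophil markers were 3.36 to 4.12 TPM in WT and 2.94 to 7.14 TPM in CD1d-KO libraries, with *Epx* at no more than 1.05 normalized counts and *Ear6* at 0. Neutrophil markers summed to 11.6 to 16.2 TPM and 18.4 to 25.3 TPM without overlap, although by normalized counts the sums overlapped (57.7 to 97.8 and 85.8 to 116). Most of the TPM was *S100a8* (47.8 ± 3.07 and 85.0 ± 3.78 normalized counts, adjusted p = 0.101 from edgeR), while *Ly6g* was at 0 and *S100a9* at no more than 1.05. The other tested marker, *Mmp8*, was lower in 4 of 4 pairs (24.9 ± 11.9 and 14.6 ± 10.2 normalized counts, SD, n = 4 each, adjusted p = 0.379 from edgeR), as was *Camp* at means of 3.68 and 2.28, which was too low to be tested. Platelet markers summed to 3.19 to 4.29 TPM and 2.47 to 3.45 TPM. None of the 8 mesothelial markers was tested, and their sum stayed at or below 1.98 TPM. Fibroblast markers summed to 0.17 to 0.76 TPM in WT and 0.80 to 4.25 TPM in CD1d-KO libraries without overlap. By normalized counts the fibroblast sums overlapped (4.81 to 15.0 and 12.6 to 102), and none of these 5 genes had enough counts to be tested. Endothelial markers summed to 1.21 to 3.23 TPM and 1.37 to 3.12 TPM. T and NK cell markers summed to 4.99 to 6.70 TPM and 2.45 to 8.39 TPM. Small peritoneal macrophage and dendritic cell markers summed to 929 to 1591 TPM and 592 to 2059 TPM, and those of large peritoneal macrophages to 7417 to 12534 TPM and 8028 to 11210 TPM. Most of the last sum was *Fn1* (mean 7557 TPM). Of the 9 genes in that list 5 had an unadjusted p under 0.05, where 7.35% of all genes tested were higher and 5.01% lower. *Timd4* (log2 fold change 0.39), *Selp* (0.43), *Garnl3* (0.65) and *Cxcl13* (0.78) were higher in 4 of 4 pairs, as were *Ptges* and *Ptgs2*, beside 10.6% of all genes. *Cd5l* was lower in 3 pairs (-0.46). The rest of the list had log2 fold changes of 0.36 (*Icam2*), 0.094 (*Adgre1*), -0.087 (*Gata6*) and -0.11 (*Fn1*). For the 5 genes under that threshold the adjusted p ranged from 0.144 to 0.357 with edgeR, and their part in the results for the 10 genes was not tested. *Cd5l*, *S100a8* and *Fcgr1* lie on chromosome 3 (starts at 87357881, 90668978 and 96282909), as does *Cd1d1* (start at 86995834). The part of this position in their levels was not tested. B cell markers summed to 496, 162, 359 and 478 TPM in WT and 582, 111, 292 and 840 TPM in CD1d-KO replicates 1, 2, 3 and 5. Their low point was replicate 2 in both genotypes, where *Ptgs2* was high, and the part of B cells in the level of any of the 10 genes was not tested.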

How the data were processed

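pMac RNA of 4 WT and 4 CD1d-KO mice was sequenced as polyadenylated RNA, 1 library per mouse. The authors trimmed single-end reads with cutadapt, aligned them with STAR 2.5.2a and deposited the expected counts and TPM that RSEM 1.3.0 estimated per Ensembl gene on GRCm38. Here the expected counts were rounded, normalized by TMM and tested in edgeR 4.0.16 (R 4.3.3) with filterByExpr, genotype and replicate number as covariates, the quasi-likelihood test and Benjamini-Hochberg adjustment. DESeq2 1.42.0, limma 3.58.1 on log2(TPM + 1), other scalings and filters, and leaving out each pair were alternatives. The study itself called genes with an earlier version of DESeq2. The scripts were tested on simulated data. Symbols came from GENCODE M21, which held 48435 of the 48795 gene IDs (99.26%), and promoter sequences from RefSeq. RSEM divides reads shared by several genes. Standard errors are the absolute log2 fold change over the square root of F.

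Replicate numbers paired the samples: deviations from the group means of same-numbered libraries correlated at 0.487, 0.387, 0.505 and 0.207 for numbers 1, 2, 3 and 5, all over 0.1, so the block was kept in the model, as in the study. The highest correlation with another number was lower for 1, 2 and 3, but 0.22 for number 5. Named genes were the 10 enzymes, *Cd1d1*, genes of the wider list with an unadjusted p under 0.05 or among the 3 highest of their role, the 5 genes most like the most variable enzyme, and markers that touch a result. *Ltb4r1* and the overlapping genes were named after their values were seen. The members and lists were chosen with earlier results of these data known.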

Additional observations from a re-analysis of the deposited data

Results flagged for a closer look

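Among 38 genes (the 10 enzymes, *Cd1d1* and the genes named from the wider list), the 4 libraries of each genotype were searched for a value far from the other 3. Of 76 such groups 5 held one, where chance gives about 1 in 20, and none of them was a group of the 10 enzymes. *Cd1d1* had 60.7 normalized counts in the library labelled CD1d-KO replicate 1, and 0 to 1.14 in the other CD1d-KO libraries. *Abcc4*, an exporter of prostaglandins, had 1336 in WT replicate 1 and 659 to 743 in the other WT libraries. *Cyp2j6*, an epoxygenase, had 58.9 in WT replicate 3 (others 32.7 to 36.7) and 27.5 in CD1d-KO replicate 2 (others 47.0 to 49.5). *Cmklr1* had 5123 in WT replicate 3 and 6975 to 7041 in the other WT libraries.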

How the results depend on the processing

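Of 140 refits of the 10 log2 fold changes, 135 kept the direction and the side of the threshold. *Ptges* was called at 0.61 by DESeq2 and at 0.61 by edgeR without a filter on counts, which made 1 gene called higher in place of 0 in each. Leaving out 1 pair at a time, *Alox5* ran from -0.28 to 0.067 (-0.30 without the library labelled CD1d-KO replicate 1), *Alox15* from -0.31 to 0.073 and *Alox5ap* from -0.0022 to 0.08, and these 3 changed sign (*Alox5* and *Alox15* without replicate 5, *Alox5ap* without replicate 2). *Ptges* ran from 0.46 to 0.77. For the wider list, genes at an unadjusted p under 0.05 numbered 0 higher and 1 lower without the replicate block. *Ptges* and *Ptgs2* also lost an unadjusted p under 0.05 without the block, which left 0 of the 10 enzymes at that threshold, so these counts depend on the pairing. Lower genes numbered 9 with library size alone and 9 with no filter. Leaving out 1 pair gave 1 to 5 higher and 4 to 10 lower genes, 5 and 10 being without replicate 2, 1 higher without replicate 5, and 1 of each without the library labelled CD1d-KO replicate 1 in a fit without pairing. By summed normalized counts the neutrophil markers were 1.31 times the WT mean in CD1d-KO pMacs. The cause of these shifts was not tested. Of the 68 genes of the wider list, 12 stayed at or below 3 normalized counts in every library, 7 of them at 0.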
